A study of Mus musculus with 36 samples.

Results

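The cerebellum and the forebrain of mice without a mutation were compared on 18 of the 36 arrays of a study of 3 neurological mutant lines. The 18 arrays were chosen by genotype and tissue alone: 9 cerebellum arrays and 9 forebrain arrays from +/+ mice. In each region 3 arrays came from stg+/+, 3 from tg+/+ and 3 from lh+/+ mice, so that every line gives its own region difference. The line symbols are those used for stargazer, tottering and lethargic, whose mutations lie in Cacng2, Cacna1a and Cacnb4; no mutant array was used in the comparison. The sample records name the genotype as +/+ but still call the animals mutant mice, and they give no age, sex or background strain. Nothing in them says that each array is a separate mouse or that both regions came from the same mice, so p-values measure only the spread between these samples. The material was total RNA hybridised to 1-colour Affymetrix arrays of 45101 probe sets, and every level below is the deposited signal intensity, a linear scale.

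The cerebellar cortex holds very many small granule cells, which use glutamate, and the far larger Purkinje cells, whose GABA output is the only one of the cortex. Granule cells receive inhibition through GABA-A receptors that contain the alpha-6 subunit, and their parallel fibres contact Purkinje cells through the cerebellin and delta glutamate receptor system. The forebrain combines cortical and hippocampal glutamate neurons, GABA interneurons born in the ganglionic eminences, the striatum, and diencephalic nuclei that use many neuropeptides. The 2 regions are set apart in the embryo by different homeobox genes, among them En2 near the midbrain-hindbrain boundary and Lhx2, Emx1 and the Dlx genes in the forebrain.

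The arrays separated by region. The first principal component held 61.3% of the variance, arrays correlated at a mean of 0.943 to 0.967 with their own region and 0.837 to 0.864 with the other one, and array medians on the log2 scale ran from 5.40 to 5.65. The sex-linked transcripts fell the same way in both regions: Xist was above 1000 on 3 cerebellum and 3 forebrain arrays and Eif2s3y above 100 on the other 6 of each. The difference between 3' and 5' probe sets of Actb, a sign of RNA breakdown, was 0.99 ± 0.09 in cerebellum and 0.88 ± 0.12 in forebrain (log2, SD, n = 9 each; difference 0.11, two-sided exact permutation p = 0.0429), and that of Gapdh was -0.37 ± 0.06 and -0.41 ± 0.10 (difference 0.04, two-sided exact permutation p = 0.353). The Actb p was 0.0531 to 0.0846 in 11 of 18 comparisons that left out 1 array, and the part of this difference in the results below was not tested.

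The regions differed over much of the transcriptome. The log2 difference, cerebellum minus forebrain, was taken within each line and averaged over the 3 lines, and a probe set is called where limma's moderated test gives a Benjamini-Hochberg adjusted p under 0.05. Of 27022 probe sets bright enough to test, 15328 were called (56.7%): 8542 were higher in cerebellum (31.6%) and 6786 were lower (25.1%). A gene is represented from here on by its brightest probe set. Of 12389 genes so named, 28.2% were higher in cerebellum and 30.2% lower, and the 9 and 9 arrays did not overlap for 25.6%. At least 2-fold differences were rarer and more often in favour of the forebrain: 631 genes were called and at least 2-fold higher in cerebellum (5.09%) and 1036 at least 2-fold lower (8.36%). By probe set the forebrain led by less, with 1604 at least 2-fold higher in cerebellum and 1861 lower. The median difference over all genes was -0.01, so the lists below are read against a background near 0. Counts of called members in these lists are likewise read against 28.2% higher and 30.2% lower, the shares over all genes. In whole tissue, fewer cells of a type and less RNA per cell cannot be told apart.

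The largest excess in cerebellum belonged to Gabra6, the alpha-6 subunit of the GABA-A receptor. Its signal ran from 6770 to 9171 over the 9 cerebellum arrays (median 7941) and from 2.83 to 178 over the 9 forebrain arrays (median 15.9), a log2 difference of 8.60 ± 0.39 (SE, adjusted p = 8.06e-13, limma). Pcp2, a G protein modulator that marks Purkinje cells, ran from 6061 to 9191 (median 7989) against 12.7 to 202 (median 20.6), a difference of 7.88 ± 0.22 (adjusted p = 1.00e-15, limma). Cbln3, the cerebellin confined to granule cells in textbook accounts, ran from 4508 to 6706 (median 5155) against 4.49 to 179 (median 18.3), a difference of 7.84 ± 0.33. For all 3 genes the lowest cerebellum array stood far above the highest forebrain array.

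Next in order came Cnpy1, a relative of the canopy regulators of FGF signalling, with a median of 1333 against 7.53 and a log2 difference of 6.92 ± 0.24. Ppp1r17, the Purkinje cell substrate of cGMP-dependent kinase, had 2317 against 24 (6.66 ± 0.29), and Fat2, a giant cadherin of parallel fibres, 972 against 6.37 (6.38 ± 0.28). Crtam, an immunoglobulin adhesion protein first known from T cells, had a median of 1045 in cerebellum, with 885 to 1229 over the arrays, against 13.5 in forebrain (6.35 ± 0.33). The others of the first 15 were Arhgef33 (5.77), Car8, a carbonic anhydrase relative that binds the IP3 receptor (5.75), the homeobox gene En2 (5.49), Gm2694 (5.16), the homeobox gene Uncx (4.79), the water channel Aqp6 (4.73), the MAP kinase phosphatase Dusp5 (4.68) and the bHLH factor Neurod1 (4.67). Car8 and Neurod1 differ from the rest in that the forebrain also gave a clear signal: 83 to 299 for Car8 and 157 to 289 for Neurod1.

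The largest excess in forebrain belonged to Ddn, which encodes dendrin, a protein of dendrites and synapses. Its signal ran from 2560 to 3177 over the forebrain arrays (median 3014) and from 13 to 47.8 over the cerebellum arrays (median 33.8), a log2 difference of -6.45 ± 0.14 (adjusted p = 5.45e-17, limma). Vip, the peptide of a class of cortical interneurons, had 433 to 814 in forebrain (median 617) and 0.991 to 17.7 in cerebellum (median 5.06), a difference of -6.38 ± 0.25. Lamp5, a membrane protein of cortical neurons, had a median of 1313 in forebrain and 17.7 in cerebellum (-6.29 ± 0.28). The LIM homeobox factor Lhx2 had 283 to 406 in forebrain and 0.514 to 9.51 in cerebellum (-6.21 ± 0.19). Cerebellum values this close to the bottom of the scale have no settled limit of detection here.

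Egr3, an immediate early gene, followed with 617 to 1838 in forebrain and 9.74 to 24.2 in cerebellum, a log2 difference of -6.14 ± 0.16. Nrgn, or neurogranin, which binds calmodulin in the spines of forebrain neurons, had 1563 to 3259 against 30.5 to 56.2 (-5.70 ± 0.13). The list went on with the cortexin gene Ctxn1 (-5.63), the zinc finger factor Bcl11b (-5.61), the guanine deaminase Gda (-5.56), the modifier potassium channel subunit Kcnf1 (-5.53), AW551984 (-5.39), Dlx1 (-5.36), the calmodulin kinase relative Camkv (-5.31), D430019H16Rik (-5.26) and Enc1, an actin-binding kelch protein (-5.25). Enc1 kept a signal of 120 to 179 in cerebellum against 4698 to 5884 in forebrain, and its SE of 0.07 was the smallest of the 30 genes. Other probe sets of some leading genes gave smaller differences of the same direction: -0.60 for Egr3 (adjusted p = 0.0259, limma), 3.50 for Pcp2, 2.84 for Aqp6, and -3.50 and -3.68 for Bcl11b, of which another gave -6.31.

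**Figure D1:**
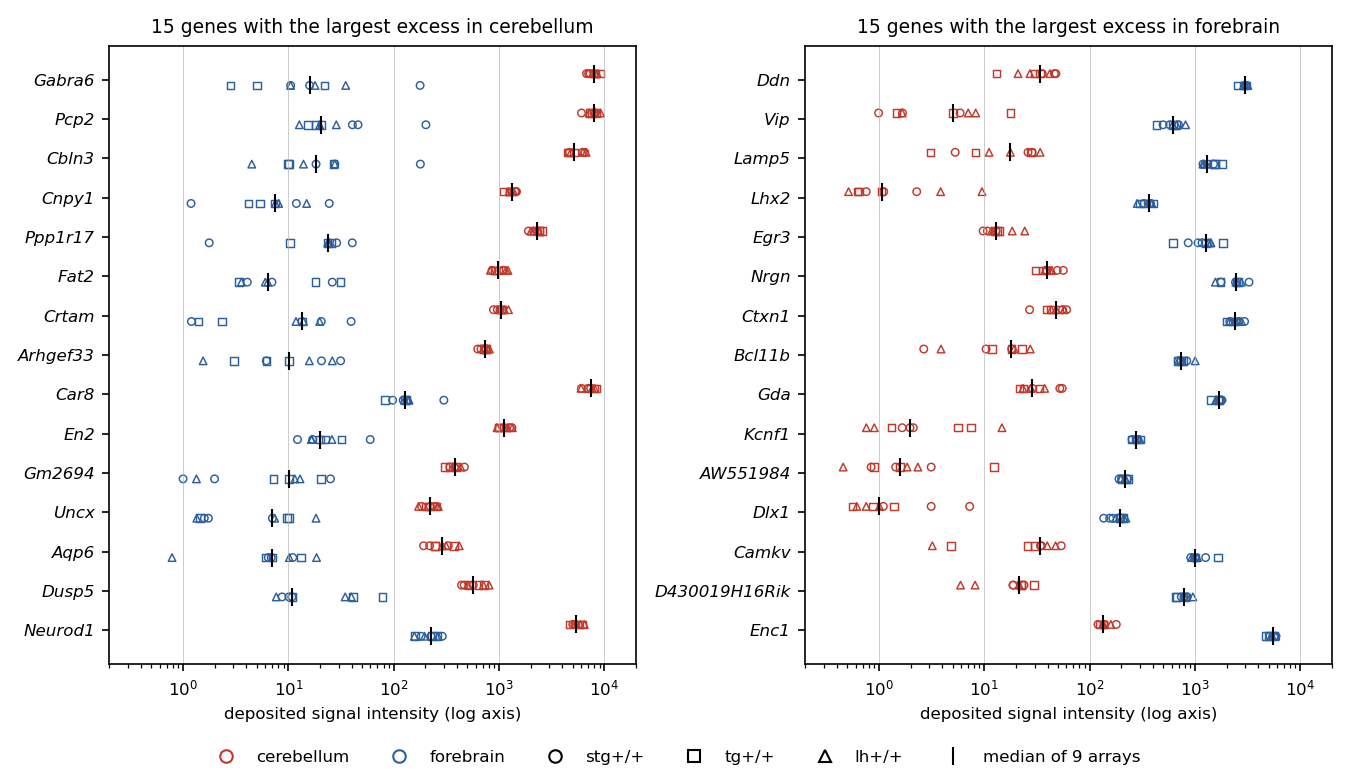
Deposited signal intensity (log axis) of the 15 genes with the largest excess in each region, 1 open symbol per array, red for cerebellum and blue for forebrain, with shape for the line and a black bar for the median of 9 arrays. The 2 regions do not overlap in any row, as the choice of these genes requires; an example is Gabra6 with 6770 to 9171 against 2.83 to 178, and 1 forebrain circle lies apart at 178 to 202 for Gabra6, Pcp2 and Cbln3.

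The promoters of a granule cell gene, a Purkinje cell gene and a forebrain gene that are among the largest differences are shown for the letters around their starts. Each holds 250 bases before and 50 after the first listed start, 5′ to 3′ on the gene's strand, from RefSeq in build GRCm38.p6. The windows are chr11:42321023-42321322 for Gabra6, chr8:3625498-3625797 for Pcp2 and chr9:37552696-37552995 for Nrgn, all on the minus strand. Capitals mark CAGATG and CAGCTG, E-box letters of the kind bound by bHLH factors such as Neurod1, and AGGTCA, the half-site letters of nuclear receptors such as Rora, each read on both strands. No 2 matches overlap in these windows. CAGATG and CAGCTG were searched first, and AGGTCA was added after it had been seen in the Pcp2 sequence, so its presence there is no result.

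Gabra6: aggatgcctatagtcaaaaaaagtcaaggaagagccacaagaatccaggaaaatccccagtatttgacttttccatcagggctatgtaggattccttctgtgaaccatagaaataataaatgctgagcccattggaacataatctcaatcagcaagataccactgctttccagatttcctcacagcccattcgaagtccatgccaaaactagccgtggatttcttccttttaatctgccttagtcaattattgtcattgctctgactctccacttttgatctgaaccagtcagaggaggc
Pcp2: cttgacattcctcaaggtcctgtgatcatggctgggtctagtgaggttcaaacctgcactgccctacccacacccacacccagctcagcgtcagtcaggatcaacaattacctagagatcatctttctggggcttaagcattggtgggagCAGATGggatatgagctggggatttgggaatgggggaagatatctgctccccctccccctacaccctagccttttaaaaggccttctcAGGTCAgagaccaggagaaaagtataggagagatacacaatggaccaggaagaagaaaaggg
Nrgn: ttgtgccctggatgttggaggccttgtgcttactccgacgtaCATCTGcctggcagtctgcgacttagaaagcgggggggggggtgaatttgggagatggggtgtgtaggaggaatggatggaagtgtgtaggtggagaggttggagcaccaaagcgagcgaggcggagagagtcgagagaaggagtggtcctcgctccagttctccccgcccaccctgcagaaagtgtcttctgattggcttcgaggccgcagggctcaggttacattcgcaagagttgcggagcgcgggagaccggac

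Pcp2 held 1 CAGATG and 1 AGGTCA, Nrgn held 1 CAGATG and Gabra6 held none of the 3 motifs. Over 27025 promoters of this length, 17.2% held CAGATG, 16.1% CAGCTG and 16% AGGTCA. Of the 15 genes highest in cerebellum, 11 had a promoter entry, and 2 of them held CAGATG (18.2%), 2 CAGCTG (18.2%) and 3 AGGTCA (27.3%). Of the 15 lowest, 12 had an entry, with 2 for CAGATG (16.7%), 3 for CAGCTG (25%) and 2 for AGGTCA (16.7%). With so few promoters these shares are a description. A match describes these letters only, and a window without one says nothing about a factor.

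1 forebrain array carried more cerebellar transcripts than the other 8. On stg+/+ forebrain replicate 1 the signal of Gabra6 was 178, against 2.83 to 35 on the others, that of Pcp2 was 202 against 12.7 to 45.8, and that of Cbln3 was 179 against 4.49 to 27.6. This array was the highest of the 9 for 11 of the 15 leading cerebellar genes, and its median level over those genes was 3.27% of the cerebellum mean, against 0.778% to 1.46% on the other forebrain arrays. Its excess over the other forebrain arrays was 2.09% of the cerebellum mean for Gabra6, 2.34% for Pcp2, 2.98% for Cbln3, 2.35% for Car8 and 1.41% for Neurod1. The reverse was not seen to the same degree: over the 15 leading forebrain genes the 9 cerebellum arrays had medians of 0.59% to 1.99% of the forebrain mean. Leaving this array out kept the direction and the call of all 30 leading genes. These were chosen for large differences without overlap, so this says nothing about smaller differences. Of the 53 gene lists, the median of 8 moved by more than its spread over the 3 lines without this array, and 0 changed sign.

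**Figure D2:**
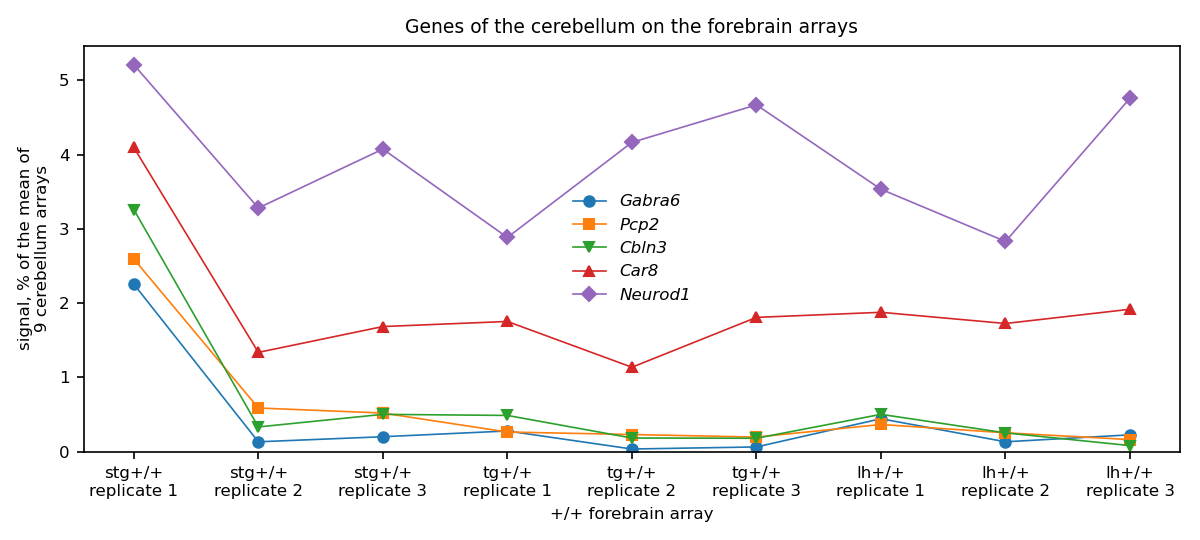
Signal of Gabra6, Pcp2, Cbln3, Car8 and Neurod1 on each +/+ forebrain array, as a percentage of the mean of the 9 cerebellum arrays (linear axis), 1 line per gene. All 5 lines are highest on stg+/+ forebrain replicate 1, where Gabra6 reached 178 against at most 35 on the other arrays.

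Granule cell markers were higher in cerebellum throughout. Of 20 listed genes 19 were measured, all 19 were called higher, 18 of them at least 2-fold, and their median log2 difference was 2.98 (all genes -0.01). The filter used the mean of all 18 arrays, so a gene that passed through its level in 1 region alone had to differ, and the counts over measured members describe and do not test. The 4 largest were Gabra6, Cbln3, Fat2 (6.38) and Uncx (4.79). The smallest difference was 0.66 for Rbfox3, the neuronal nuclear antigen NeuN, which most forebrain neurons also make. The summed signal of the list ran from 43671 to 52084 on the cerebellum arrays and from 6347 to 8143 on the forebrain arrays.

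Purkinje cell markers were higher as a group, with exceptions. Of 27 listed genes 22 were measured, 18 were called higher (16 at least 2-fold) and 3 lower, with a median log2 difference of 1.71. After Pcp2, Ppp1r17 and Car8 came Slc1a6, the Purkinje cell glutamate transporter EAAT4, at 891 to 1197 in cerebellum against 39.5 to 87.9 in forebrain (4.08). The genes called lower were Cck, Foxp2 and Fabp7. Cck, a peptide of cortical neurons, had 349 to 495 in cerebellum against 1879 to 2106 in forebrain (-2.31), and Foxp2, a forkhead factor also made in striatum and thalamus, 91.9 to 201 against 272 to 439 (-1.43). Fabp7, a fatty acid binding protein of glia, was lower by less and with overlapping arrays (-0.34).

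Interneurons and Bergmann glia of the cerebellum gave smaller differences. For the cerebellar interneuron list, 13 of 16 genes were measured, 8 were called higher and 3 lower, with a median of 1.11 (0.25 with dim genes included). The largest were the LIM factor Lhx1 (3.72), Tfap2b (2.92), Tfap2a (2.29) and the receptor kinase Kit (2.19), while Nxph1 (-1.47), Sorcs3 (-1.25) and Grm2 (-0.99) were lower in cerebellum. Of the Bergmann glia list, 12 of 14 were measured, 9 higher and 2 lower, with a median of 1.25. Gdf10, a BMP-family ligand of Bergmann glia, led with 1249 to 1581 against 51.2 to 94.9 (4.33), followed by Timp4 (2.36), Vim (2.09) and Hopx (2.03). Both glial glutamate transporters were called, in opposite directions: Slc1a3, or GLAST, was higher (1.30) and Slc1a2, or GLT-1, lower (-1.41). The other lower member of the Bergmann glia list was Fabp7, whose smaller difference is given above. Other probe sets of Slc1a3 gave 0.36 and 0.27, neither called.

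Markers of forebrain projection neurons were lower in cerebellum. Of 30 cortical and hippocampal markers 27 were measured, 20 were called lower (17 at least 2-fold) and 6 higher, with a median of -2.01 (-0.89 over all probe sets of these genes). Lamp5, Lhx2, Nrgn and Bcl11b led. The vesicular glutamate transporter Slc17a7, which granule cells also use, was lower by less, at 528 to 754 in cerebellum against 801 to 1301 (-0.66). Against the list's direction went Nptx1, a pentraxin that gathers AMPA receptors (1.23), Prox1, a marker of dentate granule cells (1.06), and Neurod2 (1.03). Neurod2 and Neurod6 are both used as markers of cortical glutamate neurons: Neurod2 had 398 to 472 in cerebellum against 190 to 244, and Neurod6 had 25.3 to 59.6 against 159 to 507.

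All 18 measured striatal markers of 22 listed were called lower, 14 at least 2-fold, with a median of -1.99. Gpr6, an orphan receptor of striatopallidal neurons, led (-5.00), then the tachykinin precursor Tac1 (-4.87), the dopamine receptor Drd1 (-4.26) and Pde1b (-3.07). The arrays overlapped for 2 of the 18. Of 20 forebrain GABA interneuron markers 13 were measured, with 11 lower, 1 higher and a median of -2.92. Vip, Dlx1, the peptide Sst (-4.77) and Tac2 (-4.15) led. Gad1, which makes GABA in both regions, was not called (4022 to 5057 against 2296 to 5383, 0.13, adjusted p = 0.329), whereas Gad2 was lower (-0.86). The cannabinoid receptor Cnr1 went against the list, at 2761 to 3549 in cerebellum and 606 to 1482 in forebrain (1.43).

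Lists of the neighbouring regions were mixed. Of 14 measured thalamus markers of 16, 5 were higher and 7 lower; Zic1 (2.98), which granule cells also make, Slc17a6 (-2.73), Tcf7l2 (-2.28) and Lhx9 (-2.21) had the largest differences. Of 10 olfactory bulb markers measured of 14, 4 were higher and 6 lower, led by Meis2 (-4.84), Cdhr1 (-4.21), Slc17a6 and Gng13 (2.45; another probe set of it gave 0.04, not called). Of 11 hypothalamus and pituitary genes measured of 21, 8 were lower and none higher, led by the feeding peptide Pmch (-4.94), Cartpt (-3.70), Avp (-3.44) and Otp (-2.15). The pituitary hormones Gh and Prl were not called (-1.64 and -1.46, adjusted p = 0.139 and 0.307, limma): 3 forebrain arrays, stg+/+ replicates 1 and 2 and lh+/+ replicate 3, had 2102 to 3526 for Gh, and the other 6 had 7.61 to 176. These 3 were also the forebrain arrays with Xist above 1000. The 3 cerebellum arrays with Xist above 1000 had the highest Gh (74.4 to 230, against 11.7 to 49.1 on the other 6) and Prl (108 to 297, against 2.36 to 34.2) of their region. The part of this in the results was not tested, and a fit without the 3 forebrain arrays leaves Xist-high arrays in cerebellum alone. Gh was called lower without lh+/+ forebrain replicate 2 (-2.25, adjusted p = 0.03, limma) or stg+/+ forebrain replicate 3 (-2.34, adjusted p = 0.0155), and Gh and Prl were with a term for the run of sample records within each line (adjusted p = 0.0219 and 0.0317). Only 6 of 21 brainstem and spinal cord markers were measured, with the dopamine transporter Slc6a3 (-3.53) and Glra1 (-2.30) lower and Slc6a5, the glycine transporter, higher (1.11).

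Choroid plexus transcripts had a wide spread and few calls. Of 13 measured markers of 16, 2 were called, Otx2 (1.28) and Igf2 (0.39), and the median was 0.13. The summed signal ran from 4404 to 15590 in cerebellum and from 10686 to 13454 in forebrain. Ttr was 3624 on stg+/+ cerebellum replicate 2, against 6975 to 13793 on the other cerebellum arrays.

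**Figure D3:**
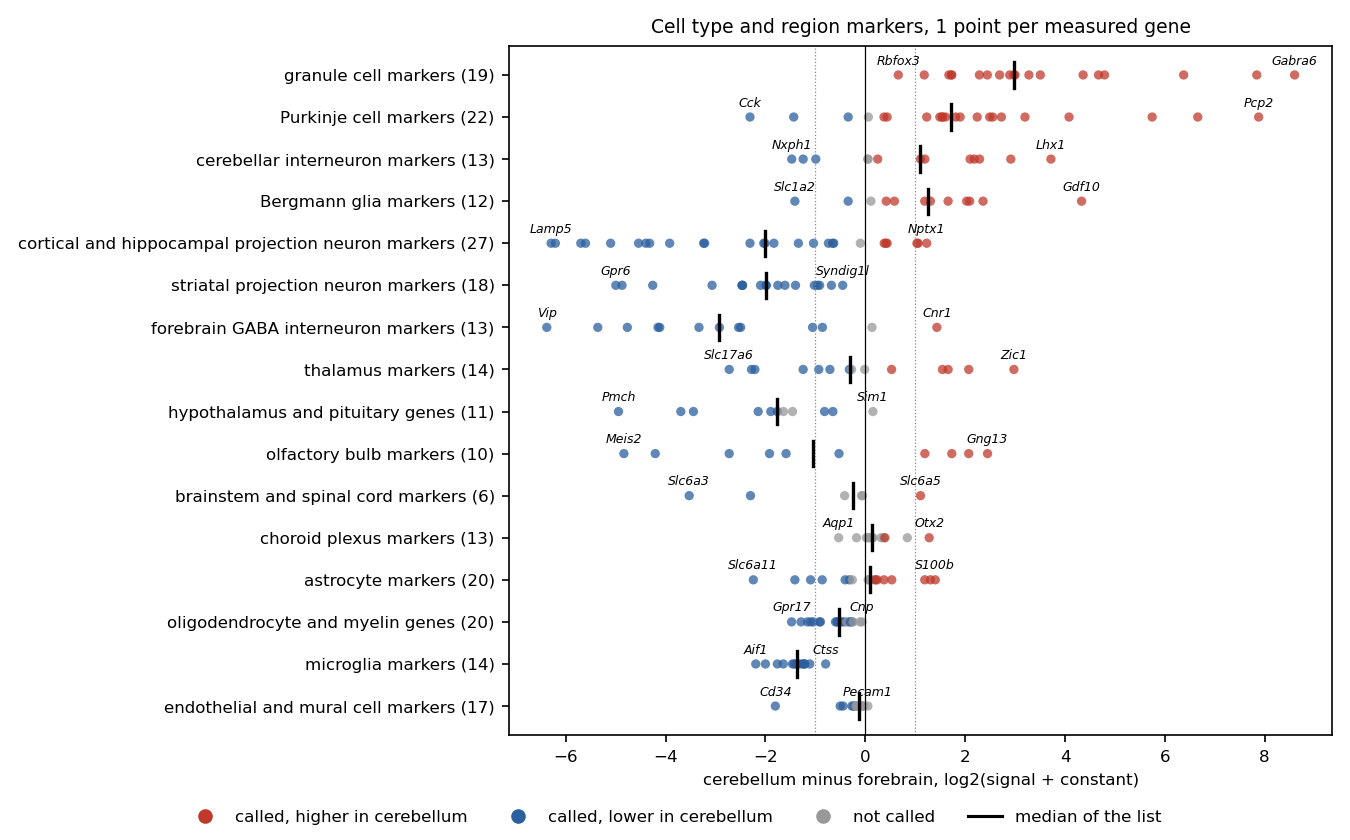
Log2 difference, cerebellum minus forebrain, of each measured member of 16 marker lists, 1 point per gene, red where called higher in cerebellum, blue where called lower and grey where not called; black bars are list medians, dotted lines 2-fold, and numbers in brackets the measured genes. Granule cell markers lie wholly to the right (0.66 to 8.60), striatal and microglia markers wholly to the left (up to -0.45 and -0.79), and choroid plexus markers around 0.

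Among non-neuronal cells, microglia markers were lower in cerebellum throughout. Of 16 microglia markers 14 were measured, all 14 were lower in cerebellum, 13 of them at least 2-fold, with a median of -1.37. Aif1, or Iba1, had 12.2 to 34 in cerebellum against 90.2 to 126 in forebrain (-2.19). Fcrls (-2.0), the purinergic receptor P2ry12 (-1.76) and the complement gene C1qc (-1.64) followed. The summed signal was 1629 to 1968 in cerebellum and 4211 to 4742 in forebrain, with no overlap, and the list's median was -1.42 in stg, -1.34 in tg and -1.37 in lh.

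Oligodendrocyte genes were also lower, by less. Of 23 listed 20 were measured, 15 lower and none higher, 5 at least 2-fold, with a median of -0.53. The largest differences were those of Gpr17 (-1.48) and Pdgfra (-1.29), both made by precursors, Opalin (-1.16) and the transcription factor Olig2 (-1.09). Mbp and Cnp, named here after their values were seen because they are major myelin genes, were not called by their brightest probe sets (-0.11 and -0.06), but 5 other probe sets of Mbp (-0.73 to -0.19) and 2 of Cnp (-0.34 and -0.32) were called lower. Astrocyte markers had no common direction, with 7 of 20 measured genes higher and 6 lower, against 28.2% and 30.2% of all genes. Their median was 0.09. The GABA transporter Slc6a11 was lower (-2.24) and S100b higher (1.40), beside Slc1a2 and Slc1a3 given above. Of 17 endothelial and mural cell markers measured of 18, 6 were lower, against 30.2% of all genes, and none higher. The median was -0.12, with Cd34 the largest (-1.80) and Slco1c1 (-0.50), Acta2 (-0.45) and Esam (-0.27) next. The call of Esam was lost in 10 of 18 fits without 1 array (adjusted p up to 0.0835, limma). Of the red blood cell list 2 of 9 genes were measured, Alas2 (0.83, called, but not without stg+/+ cerebellum replicate 3, adjusted p = 0.0523) and Hbb-b2 (-0.40, adjusted p = 0.118, limma).

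Regional transcription factors gave some of the sharpest contrasts. Of 21 measured patterning factors of 36 listed, 13 were higher in cerebellum and 7 lower, and only 1 of the 20 called was under 2-fold. The filter left 21 of the 33 with a probe set, and a factor that passed through its level in 1 region alone had to differ. With dim genes included the list median was 0.18 in place of 1.28, so the count under 2-fold describes and does not test. En2 had 957 to 1336 in cerebellum against 12.2 to 59.8 in forebrain. The zinc finger gene Zic5 (3.30), Barhl2 (3.28), Zic2 (3.0), Zic1 (2.98), the paired factor Pax6 (2.88) and Meis1 (2.18) were higher too, although another probe set of Meis1 gave 0.35 and was not called. On the forebrain side stood Lhx2, Dlx1, the T-box factor Tbr1 (-5.10), Meis2 (-4.84), Dlx2 (-2.92), Six3 (-2.26) and Emx1 (-2.03). Meis1 and Meis2, close relatives, thus lay on opposite sides. Irx2 was not called (0.27), but its relatives Irx1 (0.56), Irx5 (1.19) and Irx3 (1.35) were higher in cerebellum.

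Neuronal bHLH factors lay on both sides too, with 9 of 20 measured genes higher, 8 lower and a median of -0.07 (0.38 over all probe sets of these genes). Neurod1 (4.67), Nhlh2 (2.73) and Neurod2 (1.03) were higher by 2-fold or more. Neurod6 (-3.22) and the Notch target Hes5 (-2.26) were lower. The inhibitors of differentiation split, with Id2 (0.91; 0.41, not called, by another probe set) and Id4 (0.55) higher and Id3 (-0.83) lower. Of 24 nuclear receptors 5 were higher and 8 lower, against 28.2% and 30.2% of all genes. Rora, the gene needed for Purkinje cell maturation, was higher (1.55), as was Esrrg (0.89; -0.02 and 0.48, not called, by other probe sets), while Rxrg, the retinoid receptor of striatum, was lower (-3.20).

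GABA-A receptor subunits spread widely, from 8.60 to -5.05. Of 10 measured subunits of 18 listed, 3 were higher in cerebellum, namely Gabra6, Gabrd (1.72), its partner in extrasynaptic receptors of granule cells, and Gabrb2 (0.32). The 6 lower ones were Gabra5, a hippocampal subunit, at 1.12 to 29.1 in cerebellum against 316 to 510 in forebrain (-5.05), Gabra3 (-3.32), Gabra4 (-1.82), Gabra2 (-1.26), Gabrb1 (-1.21) and Gabrg1 (-1.10). Gabrp was not called (-0.26). Among 10 measured genes of GABA synthesis, transport and GABA-B receptors, 6 were not called, 1 was higher and 3 were lower. Slc32a1, the vesicular transporter, was not called, with 745 to 915 against 620 to 896 (0.11, adjusted p = 0.165, limma). Abat (-0.01) and the GABA-B subunit Gabbr1 (0.06) were not called either, although another probe set of Gabbr1 was lower (-0.39). Slc6a11, which clears GABA (-2.24), and Gad2, which makes it (-0.86), were lower. Kctd8, an auxiliary subunit of GABA-B receptors, was higher (1.36) and Kctd16, another one, lower (-1.11).

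Glutamate receptors also exchanged subunits between regions. Among 4 measured NMDA receptor subunits, Grin2c had 770 to 905 in cerebellum against 87.2 to 132 in forebrain (2.89), and Grin2b had 23 to 46.9 against 380 to 550 (-3.81). Grin3a (-0.97) and Grin2d (-0.56) were lower, the last not called without the 3 forebrain arrays high in Gh (adjusted p = 0.0996, limma). Among 17 AMPA receptor genes 6 were higher and 10 lower. Of the pore subunits, Gria4 was higher (1.66), Gria2 (-0.72, but 0.42 by another probe set) and Gria3 (-0.90) lower, and Gria1 was not called (0.11). The auxiliary subunits ranged further: Shisa6 (2.46) and Cacng2, or stargazin (1.07), were higher, and the cornichons Cnih3 (-3.50) and Cnih2 (-2.21) and the stargazin relative Cacng3 (-3.03) were lower.

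The cerebellins divided into pairs. Cbln1 had 3798 to 5422 in cerebellum against 179 to 385 in forebrain (4.36) and Cbln3 a difference of 7.84, whereas Cbln2 had 0.948 to 11.9 against 187 to 239 (-4.62) and Cbln4 4.67 to 31.9 against 207 to 250 (-3.76). Their receptors on the axon, the neurexins Nrxn2 (0.66) and Nrxn3 (0.68), were higher in cerebellum, although other probe sets of Nrxn3 gave -1.05, called lower, and -0.22, not called. The delta receptor Grid1 was lower (-1.54), as were the kainate receptor auxiliary subunit Neto1 (-3.24) and the C1q-like proteins C1ql3 (-2.26) and C1ql2 (-2.01). Neto2, the relative of Neto1, was higher (0.69). Of the metabotropic receptors, Grm4, the presynaptic receptor of parallel fibres, was higher (2.74) and Grm5 was lower, at 20.1 to 43.8 against 792 to 1033 (-4.64). Their scaffolds followed a similar division, with Homer3 higher (3.20) and Homer1 (-1.50) and Homer2 (-1.30) lower.

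Voltage-gated calcium channel genes included Cacna1a and Cacnb4, for which the tg and lh lines are known. Of 14 measured subunits, 4 were higher and 8 lower, against 28.2% and 30.2% of all genes. Cacna1a, which encodes the main subunit of P/Q-type channels, had 247 to 606 in cerebellum against 97.4 to 180 in forebrain (1.55). Cacnb4, a beta subunit, had 1809 to 2596 against 758 to 1484 (0.75). Cacng2, the gene of the stg line, is counted with the AMPA receptor genes and not here. It had 436 to 841 against 235 to 344 (1.07), though another probe set of it gave 0.70 and was not called. All 3 were thus higher in the cerebellum of +/+ mice by their brightest probe set, with no overlap of the arrays. Of the T-type pores, Cacna1g was higher (1.49) and Cacna1h lower, at 6.42 to 28.3 against 158 to 249 (-3.53). The auxiliary subunit Cacna2d2 was higher (1.01), and Cacna2d1 (-1.48, but 0.56 by another probe set) and Cacna2d3 (-1.22) were lower.

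Among sodium channel genes, Scn3a, a channel prominent in the developing forebrain (-4.39), and the beta subunit Scn3b (-4.11) were lower in cerebellum. Scn8a (-0.07) and Scn1a (0.13), both major adult pores, were not called, although another probe set of Scn8a was lower (-0.23). The intracellular FGFs that bind these channels went apart: Fgf14, which is mutated in a spinocerebellar ataxia, was higher (2.22) and Fgf13 lower, both by the same size (-2.22). Of 30 measured voltage-gated potassium channel genes, 10 were higher and 17 lower. Kcng4 (2.76) and Kcnc1, a fast Kv3 channel (1.77), were higher. Kcnf1, Kcnq5, at 3.24 to 24.2 against 293 to 452 (-4.95), Kcnip2 (-4.49), Kcnc2 (-4.26) and Kcnv1 (-4.07) were lower. The Kv3 relatives Kcnc1 and Kcnc2 therefore lay on opposite sides. In the remaining potassium and HCN channels 10 of 21 were higher, led by Kcnk10 (2.40), Kcnk3 (2.01) and Kcnj12 (1.88), and 5 lower, led by Kcnt2 (-4.39) and Kcnj4 (-3.17).

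**Figure D4:**
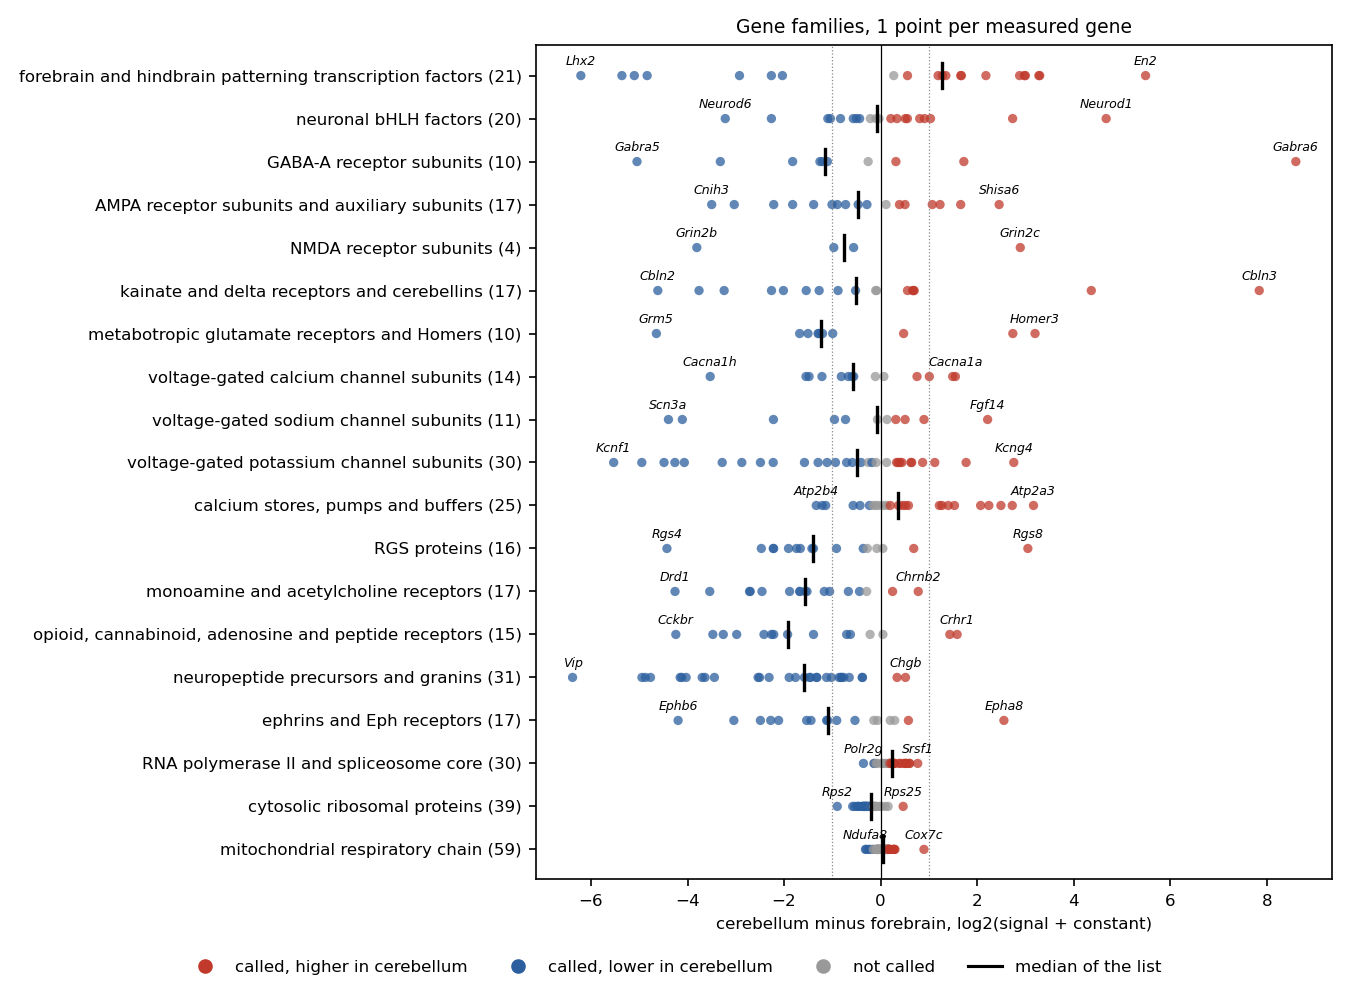
Log2 difference, cerebellum minus forebrain, of each measured member of 19 gene families, 1 point per gene, coloured by call as for the marker lists, with black bars at the medians and dotted lines at 2-fold. Receptor and channel families reach far to both sides, as in the GABA-A subunits from -5.05 to 8.60, while the 3 housekeeping lists at the bottom stay within 2-fold (-0.90 to 0.90).

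Calcium stores and buffers leaned to the cerebellum: of 25 measured genes 14 were higher and 6 lower, with a median of 0.37. Atp2a3, a calcium pump of the endoplasmic reticulum, had 397 to 560 in cerebellum against 22.3 to 75.7 in forebrain (3.17). The buffers Pvalb (2.73) and Calb1 (2.24), the store protein Casq2 (2.49) and the IP3 receptor Itpr3 (1.53) were higher. Lower were the plasma membrane pump Atp2b1 (-1.21) and the ryanodine receptor Ryr3 (-1.14). Calcium sensors and calmodulin-dependent kinases leaned the other way, with 20 of 27 lower, 5 higher and a median of -0.62. Camk2a, the alpha subunit of the main postsynaptic kinase, had 96 to 201 against 1337 to 3627 (-3.92), and Hpcal4 (-4.25) and Hpca, or hippocalcin (-2.95), were lower. Hpcal1 (2.02) and Camk4, a kinase of granule cell nuclei (1.62), were higher.

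Second messenger families traded members as well. Of 34 cyclase, phosphodiesterase and cyclic nucleotide kinase genes, 8 were higher and 21 lower. The cGMP-linked genes Pde5a (2.88), Pde9a (1.53) and Prkg1 (1.01) were higher in cerebellum, and Prkg2 (-2.83), Pde2a (-2.73) and Pde1a (-3.98) lower. Adcy1 was higher (1.38) and Adcy5, the striatal cyclase, lower (-1.98). Of 23 protein kinase C and phospholipase C genes, 9 were higher and 11 lower, led by Inpp5a (2.68), Plcb4, a phospholipase C of Purkinje cells (1.54), and Rasgrp1 (-3.11) and Plcb1 (-1.38). Of 16 RGS genes, which shorten G protein signals, 2 were higher and 11 lower with a median of -1.41 (-0.91 over all their probe sets): Rgs8 had 2512 to 2984 in cerebellum against 260 to 374 (3.05) and Rgs4 59 to 106 against 1550 to 2437 (-4.43). Of 23 G protein subunits 3 were higher and 12 lower, among them Gng13 (2.45) and Gng4 (-4.46).

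In the release machinery, isoforms of 1 family differed in opposite directions. Of 40 measured genes 10 were higher, 21 lower and 9 not called, with a median of -0.30. Snap25 (0.10), Sv2a (-0.02), Syt7 (0.14) and Cplx2 (0.19) were not called. Cplx2 passed in 7 of 18 fits without 1 array, and other probe sets of Syt7 (0.40) and Cplx2 (0.24) were called higher. Syt2, a fast calcium sensor (2.0), Cadps2 (1.73), Syt9 (1.5) and Unc13c, an isoform of granule cell terminals (1.45), were higher. Stx1a had 12.8 to 60.5 in cerebellum against 1386 to 1841 in forebrain (-5.13), and Doc2a (-5.15), Syt16 (-4.47) and Syt5 (-3.94) were lower. Syt1 was lower by its brightest probe set (-0.96) and higher by another (0.25). Of 16 neurotransmitter transporters 5 were higher, led by Slc1a6, and 9 lower, among them Slc6a7 (-2.67) and Slc18a2 (-2.19).

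Neuropeptides and their receptors favoured the forebrain. Of 31 measured precursors and granins, 29 were lower in cerebellum, 22 of them at least 2-fold, and 2 were higher, with a median of -1.58. Vip, Pmch, Tac1, Sst, Tac2, Crh (-4.12), Grp (-4.03), Cartpt and Nts (-3.64) were the lowest. The exceptions were the granins Chgb (0.52) and Scg3 (0.34). Of 15 measured opioid, cannabinoid, adenosine and peptide receptors 2 were higher, Crhr1, the receptor for Crh (1.58), and Cnr1, and 11 lower, led by Cckbr (-4.24), Tacr3 (-3.48) and Npy1r (-3.26). The list holds 32 receptors, 28 of them with a probe set, and its median was -1.93 (-1.04 with dim genes included). Crhr1 and its ligand thus differed in opposite directions between the regions.

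Monoamine and acetylcholine receptors were nearly all lower where measured, with 14 of 17 lower, 2 higher and a median of -1.56. After Drd1, the muscarinic receptor Chrm1 had 19.1 to 65.8 in cerebellum against 396 to 527 in forebrain (-3.54), followed by the serotonin receptors Htr2c (-2.71) and Htr1a (-2.70). The exceptions were the nicotinic subunit Chrnb2 (0.78; 0.23, not called, by another probe set) and Htr1b (0.25), whose call was lost without stg+/+ forebrain replicate 1 or stg+/+ cerebellum replicate 3 (adjusted p up to 0.0511, limma), with quantile normalization (0.0618) and without the 3 forebrain arrays high in Gh (0.115). Of 40 listed receptors 29 had a probe set, and 12 of those were too dim to test. Growth factors differed less, with 6 of 19 higher, 8 lower and a median of -0.13, among them Gfra1 (-2.62), Gfra2 (-2.05) and Fgf9 (0.87). Bdnf, at 78.1 to 158 against 130 to 191, was lower by little (-0.36), with overlapping arrays. Its call was lost where all 36 arrays, mutants included, shared the estimate of spread (adjusted p = 0.0731, limma), and another probe set of it was not called (0.23).

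Activity-regulated genes did not move as 1 group. Of 27 measured genes 15 were lower, 13 of them at least 2-fold, and 6 higher. After Egr3 came Arc, the synaptic plasticity gene, at 7.46 to 56.2 in cerebellum against 352 to 876 in forebrain (-4.05), then Egr2 (-3.60) and Ptgs2 (-2.85). Fos itself was higher in cerebellum, with 711 to 2276 against 583 to 1798 and overlapping arrays (0.48), but its call was lost in 10 of 18 fits without 1 array (adjusted p up to 0.0942, limma). Ier2 (0.95) and Dusp1 (0.89) were higher too. Dusp5 was higher by far more, with 440 to 805 against 7.67 to 78.2. The MAP kinase phosphatases Dusp5 and Dusp6 (-1.46) lay on opposite sides.

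Ephrins and Eph receptors, which guide axons by contact, were lower for 11 of 17 measured genes and higher for 2, with a median of -1.10 (-0.53 with dim genes included). Ephb6 had 1.44 to 25.3 in cerebellum against 185 to 286 in forebrain (-4.20), and Epha5 (-3.04) and Epha4 (-2.49) were lower, while Epha8 (2.55) and Epha3 (0.58) were higher. Chromatin regulators favoured the cerebellum by count, with 18 of 40 higher and 8 lower, against 28.2% and 30.2% of all genes. Their median was 0.16. Most differences were under 2-fold. The largest was that of Chd7, a chromatin remodeller needed for granule cell development, at 773 to 993 in cerebellum against 23.7 to 103 in forebrain (4.10), with its relative Chd5 lower (-2.39). The Polycomb genes Ezh2 (1.09), Eed (0.92) and Suz12 (0.77) were all higher.

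Housekeeping lists stayed within 2-fold, with small shifts in the 3 lists. Of 39 measured cytosolic ribosomal protein genes 27 were lower in cerebellum and 1 higher, with a median of -0.21. Rps2 was the lowest (-0.90) and Rps25 the only higher one (0.47). RNA polymerase II and spliceosome genes went the other way, with 18 of 30 higher, 2 lower and a median of 0.24, from Srsf1 (0.77) to Polr2g (-0.36). For the respiratory chain 40 of 59 genes were not called, 14 were higher and 5 lower, with a median of 0.05 and a range from Ndufa8 (-0.31) to Cox7c (0.90). With each array centred on its median the 3 list medians were -0.23, 0.21 and 0.03, and with quantile normalization -0.13, 0.23 and 0.13, so their signs did not depend on these scalings. By line the respiratory chain median was -0.069 in stg, 0.055 in tg and 0.126 in lh, so its sign was not the same in all lines.

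The region difference was much alike in the 3 lines. Of the 3465 probe sets called and at least 2-fold apart, 3462 had the same sign in all 3 lines (99.91%). They were chosen by the mean of these same 3 differences, which favours 1 sign, so this count describes and does not test. Over all probe sets tested, the differences of any pair of lines correlated at 0.908 to 0.916, and probe sets are not independent replicates. A moderated F test asked whether the difference varied among lines, and 4 of 27022 probe sets passed (0.0148%).

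Slc7a3, a transporter of cationic amino acids, had the smallest p (adjusted p = 8.75e-05, limma's F test). Its cerebellum signal was 30, 36.6 and 36.8 in lh+/+ and 126 to 164 in stg+/+ and tg+/+, while forebrain lay between 132 and 191 in all lines. The log2 difference was therefore -2.17 in lh, -0.23 in tg and -0.01 in stg. Clmp, an immunoglobulin adhesion protein, had differences of 1.97 in lh, 0.78 in stg and 0.43 in tg (adjusted p = 0.00209, limma's F test). In lh both regions took part, with 342 to 397 in cerebellum and 87 to 103 in forebrain, against 220 to 284 and 137 to 200 in the other lines.

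Stmn1, or stathmin, which binds tubulin, was lower in stg (-1.10) than in tg (-0.35) and lh (-0.11; adjusted p = 0.026, limma's F test): its cerebellum signal was 2750 to 3479 in stg+/+ and 4938 to 7032 in the other lines. The fourth probe set has no gene symbol in the table used. Its cerebellum signal was 300 to 402 in lh+/+ and 24.2 to 48 in the other lines, with forebrain at 17.6 to 46.3 (adjusted p = 0.0106, limma's F test). The next genes did not pass: Fzd2 (adjusted p = 0.0807), Krt12 (0.229), Gm266 (0.306), Hebp1 (0.338) and Dipk1a (0.338). Stmn1 kept its call in 16 of 29 other settings, the unnamed probe set in 24, Slc7a3 in 28 and Clmp in 29. Slc7a3 lost it where all 36 arrays shared the estimate of spread (adjusted p = 0.499, limma's F test).

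**Figure D5:**
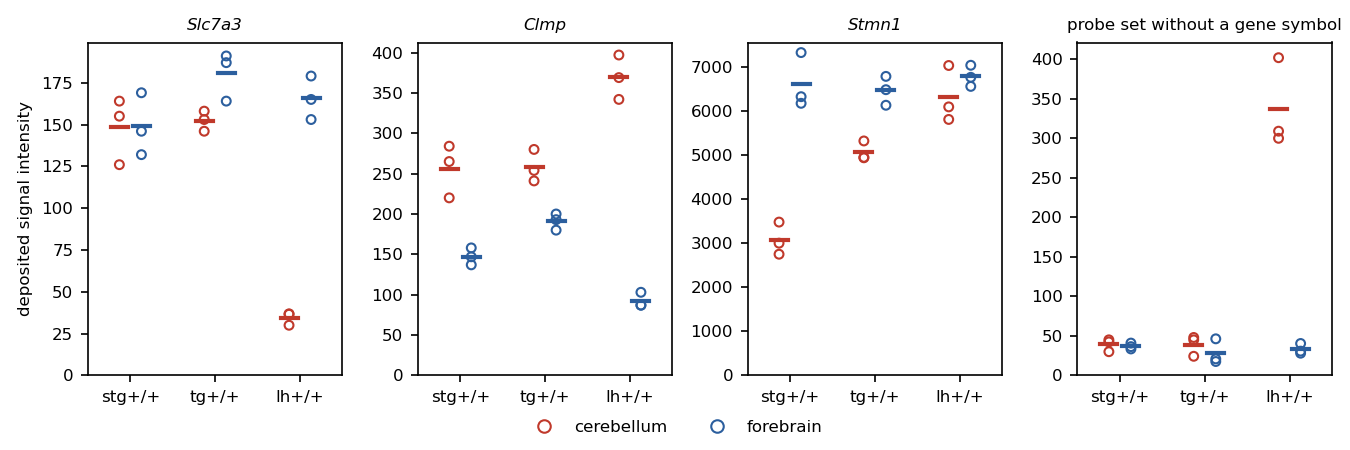
Deposited signal intensity (linear axis from 0) of the 4 probe sets whose region difference differed among lines, by line, 1 open circle per array, with a bar at the mean of 3 arrays, red for cerebellum and blue for forebrain. In lh+/+ cerebellum Slc7a3 lies at 30 to 36.8 and the unnamed probe set at 300 to 402, apart from both other lines, and in stg+/+ cerebellum Stmn1 lies at 2750 to 3479.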

How the data were processed

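Total RNA of cerebellum and forebrain was measured on 1-colour Affymetrix arrays, and the deposited value of each probe set is a signal intensity, scaled by the authors so that the mean without the top and bottom 2% is 150 on every array, as the values show. The sources used here do not name the scaling software. Control probe sets (64) were left out, and symbols came from the platform annotation: 34958 probe sets had 1 symbol, 932 several and 9211 none.

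Values were log2 transformed after adding 2.98, the 10th percentile of all values, which understates the change of dim genes. The filter kept those whose mean over the 18 arrays lay above percentile 40. The limma package (version 3.58.1, R 4.3.3) fitted a mean for each line and region, with a trended prior, and the contrast averaged the 3 within-line differences. Benjamini-Hochberg adjustment ran over all 27022 probe sets, with a threshold of 0.05. A gene was read from its brightest 1-symbol probe set, so an adjusted p of a gene is that of this fit. On simulated arrays 100 of 27022 probe sets were changed by 1 and 100 by 0.5 on the log2 scale, and 87% and 44% were recovered. The share changed there was far below the 56.7% called in the data, so these rates do not give the share recovered in this comparison. Array number limits the precision.

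Named genes were the 15 largest non-overlapping differences in each direction, the 4 largest called members of each marker list and members against its direction, the largest members of each family, and the 8 genes with the smallest p for a difference among lines. Members and lists were chosen with earlier results of these data known. The effects of other filters, constants, scalings, weights, designs and left-out arrays are given at the end.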

Additional observations from a re-analysis of the deposited data

Results flagged for a closer look

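In each region an array was set apart where its gap to the nearest of the 9, divided by their range, passed Dixon's critical value for 9 samples, which chance does for about 1 in 20 groups. Of 106 list means 9 did, and of 60 values of the 30 leading genes 6 did. The other genes named in the text were not screened in this way.

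On stg+/+ forebrain replicate 1 the mean log2 level of the granule cell list was 7.12 (next array 6.68) and that of the chromatin list 8.08 (next 7.98), and the log2 values of Pcp2, Cbln3 and Car8 were 7.68, 7.51 and 8.24 (next 5.61, 4.93 and 7.16), all highest. On tg+/+ forebrain replicate 2 the forebrain GABA interneuron, patterning factor and bHLH lists were lowest, at 8.15, 6.04 and 7.60, as was Ddn at 11.32. Also lowest in forebrain were the red blood cell list on tg+/+ replicate 3 (4.20, of 2 measured genes) and Aqp6 on lh+/+ replicate 3 (1.91). In cerebellum the interneuron list was highest on lh+/+ replicate 1 (7.69), AW551984 highest on tg+/+ replicate 2 (3.93), the GABA-A list lowest on tg+/+ replicate 1 (7.72) and the activity-regulated list lowest on stg+/+ replicate 2 (6.84).

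The region difference itself varied among lines, by limma's F test, for Slc7a3 (adjusted p = 8.75e-05), Clmp (0.00209), an unnamed probe set (0.0106) and Stmn1 (0.026), described above.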

How the results depend on the processing

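No paired analysis was possible because the forebrain labels carry no replicate numbers and nothing says that both regions came from the same mice. Forebrain numbers follow the order of the records and only name arrays, although Xist was above 1000 at the same 3 positions in both regions (stg+/+ 1 and 2, lh+/+ 3). The count of called probe sets stayed within 1.5 times of 15328 under every alternative, from 11334 with the filter at the 60th percentile to 16535 without a filter, and ran from 14595 to 15382 without single arrays. The count at least 2-fold apart fell from 3465 to 2105 with the filter at the 60th percentile, where fewer probe sets are tested, and was 3421 to 3557 without single arrays. The lead of the forebrain in this count, 1604 higher and 1861 lower, was smaller in some alternatives. It was 1034 and 1071 with that filter, and 1720 and 1775 without the 3 forebrain arrays high in pituitary genes. The count of probe sets whose region difference differs among lines was 2 without the 3 forebrain arrays high in pituitary genes, an alternative chosen after seeing the data, and ran from 2 (without lh+/+ cerebellum replicate 1 or lh+/+ forebrain replicate 3) to 7 (without lh+/+ cerebellum replicate 3); the cause was not tested. The Actb difference between regions ran from 0.088 to 0.145 without single arrays. A constant of 16 in place of 2.98 moved the fold of 22 of the 30 leading genes by over 1.5 times (median ratio 0.561), so large folds of dim genes depend on it. Of 304 named genes 286 kept their call under every alternative, 6 lost it under at least 1, as given above, 12 that were not called passed under at least 1, and no called gene changed direction.
Of 53 lists, the median changed sign for 4 when all probe sets were used (bHLH factors, nuclear receptors, sodium channels, clock genes), 2 under median centring (GABA synthesis, RNA-binding proteins), 1 without a filter (sodium channels) and 3 without the pituitary-high arrays (brainstem, bHLH, clock genes). More medians moved by more than their spread over the 3 lines: 30 with all probe sets, 19 without a filter and 16 without the pituitary-high arrays. With all probe sets the median of voltage-gated potassium channels went from -0.50 to -0.12 and that of AMPA receptor genes from -0.47 to -0.13. The median of patterning factors was 0.18 without a filter. Signals near the bottom of the scale limit what can be said of the dimmer region.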

Other observations

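Adhesion molecules of the cadherin family lay on both sides. Of 14 measured classical cadherins 4 were higher in cerebellum, 6 lower and 4 not called, against 28.2% higher and 30.2% lower over all genes. Cdh15, or M-cadherin, found on granule cells (2.44), Cdh1 (1.64) and Cdh7 (1.13) were higher, and Cdh9 (-3.81) and Cdh6 (-2.31) lower. Of 27 contactins and related immunoglobulin proteins 8 were higher and 15 lower, most by less than 2-fold: Cntn6 (1.74) and Cntn2 (0.94) were higher, and Cntn3 (-1.36) and Dscam (-1.22) lower. All 29 listed semaphorins, plexins and neuropilins were measured, with 9 higher and 15 lower. Plxnb2 (1.17) and Sema4g (1.14) were higher, and the receptor Nrp1 (-1.57) and Sema3c (-1.53) lower.

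Neuronal splicing regulators had a median near 0 (0.01), with 11 of 26 higher and 9 lower, but the largest differences were on the forebrain side: Khdrbs3 (-3.07), Celf5 (-2.40), Celf6 (-1.87) and Elavl2 (-1.75), against Srrm4 (0.99, but 0.14 and not called by another probe set) as the largest in cerebellum. Rbfox1 was not called (-0.06), although another probe set of it was lower (-0.21). Of 21 clock genes 6 were higher and 7 lower, close to the shares over all genes. The repressor Cry1 (1.66) and Nfil3 (1.20) were higher and Npas2, the forebrain partner of the clock, was lower (-2.12), whereas Per1 (0.20), Per2 (-0.02) and Dbp (-0.06), genes that swing with the time of day, were not called.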
